A study of Mus musculus with 4 samples.

Results

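The MAP kinase cascade genes described here are 9 mouse kinase genes, Mapk14, Map2k3, Map2k6, Mapk8, Map2k4, Map3k5, Map4k3, Map4k5 and Map2k1, out of 21887 protein-coding genes of the nuclear chromosomes. They were chosen as members of the p38, JNK and ERK branches with the presence and fold enrichment of PHF2 peaks in these lists known, so a peak at a member is a description and not a test. All peaks were taken that overlapped a member's RefSeq gene body in mm10, or the 5 kb on each side of it, by at least 1 bp. The window held 0 peaks of KO PHF2 muscle, 9 peaks of Ctrl PHF2 muscle, and none of either IgG list.

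CUT&RUN, in which an antibody tethers a nuclease that cuts out the DNA around its target, was applied to gastrocnemius, a calf muscle, from 4-week-old male C57BL/6 mice. KO mice were Phf2 flox/flox;Acta1 Cre+ and Ctrl mice were Phf2 flox/flox;Acta1 Cre-, so both genotypes carried the floxed Phf2 alleles and Cre alone set them apart. The Acta1 promoter is active in muscle fibres, and the vessel, connective tissue, immune and satellite cells of the same muscle are outside its main range. Each genotype was profiled with an antibody to PHF2 and with IgG, a non-specific antibody, giving 4 groups of 1 library. How many animals went into a library is not given in the sources used here.

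PHF2 is a chromatin protein whose PHD finger binds histone H3 methylated at lysine 4, a mark of active gene starts, and which also carries a JmjC demethylase domain. In MAP kinase cascades a MAP3K phosphorylates a MAP2K, which in turn phosphorylates a terminal MAP kinase, and MAP4K family kinases act above the MAP3K. The ERK branch is driven mainly by growth factors, and the p38 and JNK branches mainly by stress and inflammatory signals. In muscle, p38 alpha takes part in myoblast differentiation and in the response of fibres to contraction.

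The authors' lists held 161 peaks for KO PHF2, 1621 for Ctrl PHF2, 152 for KO IgG and 77 for Ctrl IgG. With 1 library a group, no test across samples was possible, and every comparison is between libraries and not between genotypes. Read totals are unknown, but the whole number of sequenced tags under each PHF2 summit could be recovered from the deposited values. It had a median of 15 in KO and 15 in Ctrl. These medians are over called peaks only and do not measure the depth of either library. Intervals for tags are exact Poisson intervals at 95%, and they and all limits on shares cover counting error only. Phf2 itself, on chromosome 13, had 0 KO PHF2, 0 Ctrl PHF2, 1 KO IgG and 0 Ctrl IgG peaks in the same kind of window, and peak lists measure neither its deletion nor the tissue's cell makeup.

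The sequences around 5 of the gene starts show where the Ctrl PHF2 peaks lie at strong, wide, narrow and weak examples and at the member without a peak. Each is the RefSeq promoter window of GRCm38.p6, the assembly behind mm10, from 250 bases before the start to 50 bases into the gene, written 5′ to 3′ on the gene's strand. Capitals mark the bases inside an authors' Ctrl PHF2 peak.
Mapk14, chr17:28691092-28691391, plus strand: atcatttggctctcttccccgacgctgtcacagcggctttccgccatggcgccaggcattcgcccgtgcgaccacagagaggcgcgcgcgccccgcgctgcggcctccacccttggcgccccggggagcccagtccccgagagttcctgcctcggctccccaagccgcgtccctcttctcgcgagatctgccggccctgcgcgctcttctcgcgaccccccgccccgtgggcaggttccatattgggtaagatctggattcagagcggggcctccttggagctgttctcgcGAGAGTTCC
Map2k3, chr11:60931804-60932103, plus strand: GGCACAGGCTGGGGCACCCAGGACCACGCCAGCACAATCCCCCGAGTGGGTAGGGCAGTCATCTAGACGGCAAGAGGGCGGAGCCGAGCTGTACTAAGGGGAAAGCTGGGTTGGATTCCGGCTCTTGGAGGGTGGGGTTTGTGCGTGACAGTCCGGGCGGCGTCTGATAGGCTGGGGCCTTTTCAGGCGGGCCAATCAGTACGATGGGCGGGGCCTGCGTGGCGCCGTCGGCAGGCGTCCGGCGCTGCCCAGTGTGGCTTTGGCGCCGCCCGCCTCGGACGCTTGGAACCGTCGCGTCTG
Map2k1, chr9:64253556-64253855, minus strand: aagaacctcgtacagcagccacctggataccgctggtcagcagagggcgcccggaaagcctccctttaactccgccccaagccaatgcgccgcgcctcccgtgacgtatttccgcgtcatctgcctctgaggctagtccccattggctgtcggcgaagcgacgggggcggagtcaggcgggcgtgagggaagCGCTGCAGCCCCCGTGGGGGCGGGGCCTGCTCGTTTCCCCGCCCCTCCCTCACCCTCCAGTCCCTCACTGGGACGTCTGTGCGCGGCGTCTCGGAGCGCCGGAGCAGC
Map4k3, chr17:80727976-80728275, minus strand: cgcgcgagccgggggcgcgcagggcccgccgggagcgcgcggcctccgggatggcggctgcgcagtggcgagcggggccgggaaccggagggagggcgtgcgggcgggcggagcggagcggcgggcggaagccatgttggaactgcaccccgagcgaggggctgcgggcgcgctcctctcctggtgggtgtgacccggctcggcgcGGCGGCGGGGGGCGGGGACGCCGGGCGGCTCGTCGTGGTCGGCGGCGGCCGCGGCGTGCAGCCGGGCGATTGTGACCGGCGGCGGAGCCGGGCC
Mapk8, chr14:33447109-33447408, minus strand: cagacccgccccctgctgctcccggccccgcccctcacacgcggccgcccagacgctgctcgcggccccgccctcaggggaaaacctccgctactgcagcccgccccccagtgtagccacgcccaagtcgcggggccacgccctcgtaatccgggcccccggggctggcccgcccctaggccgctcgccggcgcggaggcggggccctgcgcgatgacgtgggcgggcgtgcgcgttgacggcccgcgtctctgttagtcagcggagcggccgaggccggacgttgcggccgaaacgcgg
At Mapk14 only the last 9 bases of the window were inside the peak, which went on into the gene. The Map2k1 peak took up the last 108 bases and the Map4k3 peak the last 94. All 300 bases at Map2k3 were covered. At Mapk8 none were. Among the 4 members not printed, the Map3k5 window was covered in full, while those of Map2k6, Map2k4 and Map4k5 had no covered base because the peak began further inside the gene.

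In the PHF2 lists, 8 of the 9 members had a Ctrl peak, and 0 of 9 had a KO peak. Over all protein-coding genes, 0.713% had a KO PHF2 peak in such a window and 7.38% had a Ctrl PHF2 peak. A Ctrl peak without a KO peak in the window was found at 8 of 9 members and at 6.80% of all genes. Among the 8894 genes whose length lay in the members' range, 20.8 to 208.7 kb, the Ctrl share was 10.6%. Since the members were picked from these data, nothing is read from their excess over that share, and at a background of 0.713% a KO count of 0 of 9 says nothing particular about them. In the IgG lists 0 of 9 members had a peak in KO and 0 of 9 in Ctrl, against 0.155% and 0.0640% of all genes.

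**Figure D1:**
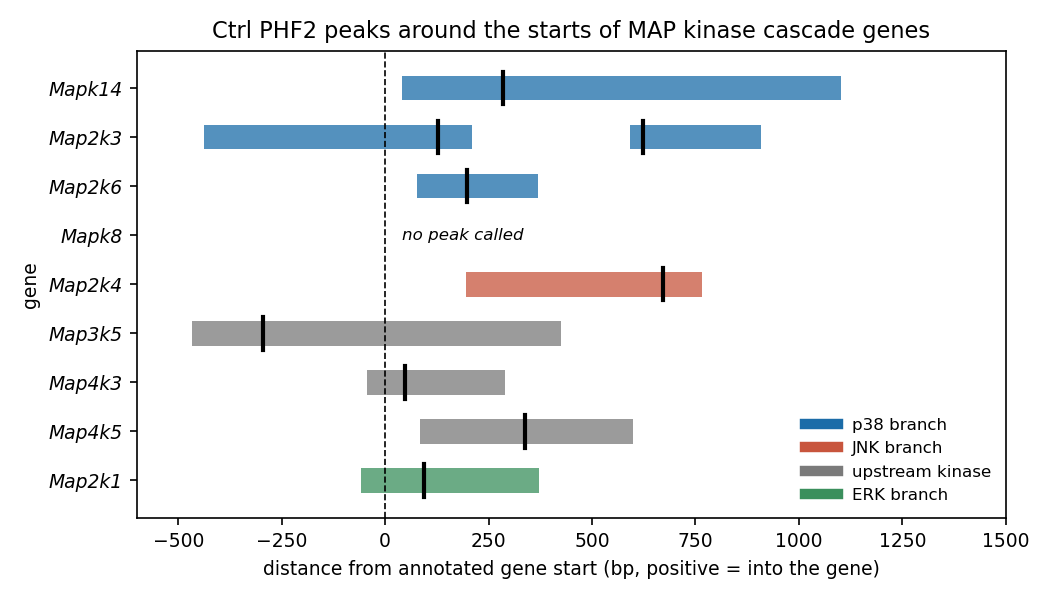
Extent of each Ctrl PHF2 peak (bars, coloured by branch) in bp from the nearest annotated start of its gene, with the summit as a black line and the start as a dashed line. All bars reach into the gene, only 4 of 9 include the start itself, and Mapk8 has none. KO PHF2 and the IgG lists had no peak at these genes.

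The p38 branch had a Ctrl PHF2 peak at each of its 3 members. Mapk14 (Gene ID 26416), which encodes p38 alpha, had 0 KO PHF2 peaks and 1 Ctrl PHF2 peak, on chromosome 17 from 28691383 to 28692443. This peak was 1061 bp wide and had an authors' fold enrichment, the caller's ratio of summit signal to local background, of 12.2. It had 24 tags at the summit (interval 15.4 to 35.7) and an authors' -log10 q of 14.8. Only 24 of the 1621 Ctrl peaks had a higher fold enrichment. The peak began 41 bp inside the gene, at its upstream annotated start, and its summit lay 284 bp from that start. A second annotated start of Mapk14 lies beyond the end of the peak. The upstream edge of Slc26a8, an anion transporter gene on the opposite strand, lies 110 bp from the peak, although the start listed for it is 1355 bp from that of Mapk14, so the peak cannot be assigned to Mapk14 alone.

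Map2k3 and Map2k6 encode MKK3 and MKK6, the MAP2Ks that phosphorylate p38. Map2k3 was the only member with 2 Ctrl PHF2 peaks, and 1.08% of all genes had 2 or more. Its main peak (chromosome 11, 60931617 to 60932263) was 647 bp wide, with a fold enrichment of 6.02 and 17 tags (9.90 to 27.2). Its smaller peak (60932647 to 60932963) was 317 bp wide, with a fold enrichment of 4.36, 13 tags (6.92 to 22.2) and a -log10 q of 1.98, near the lowest value of the list, 1.40. The main summit lay 128 bp and the smaller summit 623 bp inside the gene. The main peak also spanned the start of the divergent lncRNA gene Map2k3os, 187 bp from that of Map2k3, so it cannot be assigned to one of the pair.

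At Map2k6 the single Ctrl peak (chromosome 11, 110399180 to 110399471) was 292 bp wide, which is the shortest width in the list and was shared by 114 peaks. Its fold enrichment of 6.46 was close to the Ctrl median of 6.37, with 12 tags (6.20 to 20.96). The summit lay 197 bp inside the gene from the upstream one of its 3 annotated starts. Neither of the internal starts had a peak. In fold enrichment Mapk14 stood above both p38 activators, while its tag interval overlapped theirs.

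In the JNK branch, Mapk8 (Gene ID 26419), which encodes the terminal kinase JNK1, was the only member with no peak in any list. The Ctrl PHF2 peak nearest to the gene, on chromosome 14, was 692 kb away. Map2k4 encodes MKK4, which phosphorylates JNK and also p38. It had 1 Ctrl PHF2 peak, from 65787594 to 65788164 on chromosome 11, 571 bp wide with a fold enrichment of 5.50. This summit had 10 tags (4.80 to 18.4), the lowest number among the member peaks, and 94.9% of Ctrl peaks had more. It lay 672 bp inside the gene, the greatest distance among the members. The peak edge nearest to the start was 195 bp from it, and the second annotated start, within the gene, had no peak.

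The single ERK branch member, Map2k1 (Gene ID 26395), encodes MEK1, which phosphorylates the terminal kinases of that branch. Its Ctrl PHF2 peak ran from 64253233 to 64253663 on chromosome 9 and was 431 bp wide. The fold enrichment was 7.89, exceeded by 19.4% of Ctrl peaks, while 60.95% of Ctrl peaks were wider. The summit had 15 tags (8.40 to 24.7) and lay 95 bp inside the gene. No other annotated gene lay within 5 kb of this peak.

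Of the upstream kinases, Map3k5 (Gene ID 26408) encodes ASK1, a MAP3K that responds to oxidative stress and feeds p38 and JNK. Its Ctrl PHF2 peak (chromosome 10, 19934059 to 19934951) was 893 bp wide, with a fold enrichment of 8.37 and 16 tags (9.15 to 25.98). It was the only member whose summit lay before the start listed in the promoter table, at -296 bp. The gene body in the gene table begins at 19934101, upstream of that listed start, so this summit is still within the annotated gene.

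Map4k3 and Map4k5 encode GLK and GCKR, kinases of the germinal centre kinase group that act above the MAP3K level. The Map4k3 peak (chromosome 17, 80727735 to 80728069) was 335 bp wide, with a fold enrichment of 4.40, 12 tags (6.20 to 20.96) and a -log10 q of 1.61. The annotated body of Map4k3 extends to 80728806, upstream of the listed start at 80728025, and the peak does not reach that end. The nearest edge of the pseudogene Gm9959, at 80728129, lies within that body and 60 bp from the peak. In fold enrichment 94.9% of the Ctrl list stood above this peak. The Map4k5 peak (chromosome 12, 69892565 to 69893079) was 515 bp wide, with a fold enrichment of 5.70 and 16 tags (9.15 to 25.98). Its summit lay 337 bp inside Map4k5, and also at -279 bp, thus upstream, from the start of Atl1, which encodes a GTPase that shapes the endoplasmic reticulum. The starts of these oppositely oriented genes are 58 bp apart, so the peak counts for both.

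**Figure D2:**
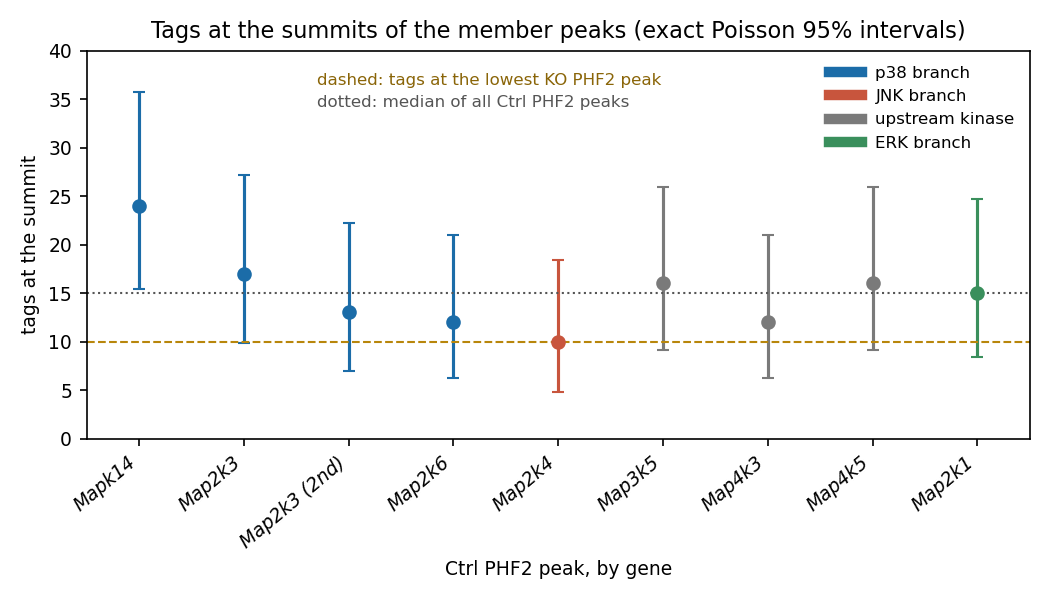
Tags at the summit of each Ctrl PHF2 peak at a member (points, coloured by branch) with exact Poisson 95% intervals. The numbers run from 10 at Map2k4 to 24 at Mapk14, and all intervals overlap. The dashed line is the lowest number at any KO PHF2 peak, 10, and the dotted line is the median of all Ctrl PHF2 peaks, 15.

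The 9 member peaks were spread through the Ctrl list in size. Their median fold enrichment was 6.02, with a range of 4.36 to 12.2, against 6.37 over all 1621 Ctrl PHF2 peaks. The median width was 515 bp, with a range of 292 to 1061 bp, against 505 bp. The median number of tags was 15 for the members and 15 for the list. At the high end lay Mapk14, with 1.48% of the list above it in fold enrichment, 6.60% above it in tags and 13.8% above it in width. At the low end of fold enrichment lay the smaller Map2k3 peak, with 96.5% of the list above it, and Map4k3, with 94.9%, and both were also narrow. Map2k4 was low in tags, and Map2k6 in width, with 92.97% of the list wider.

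**Figure D3:**
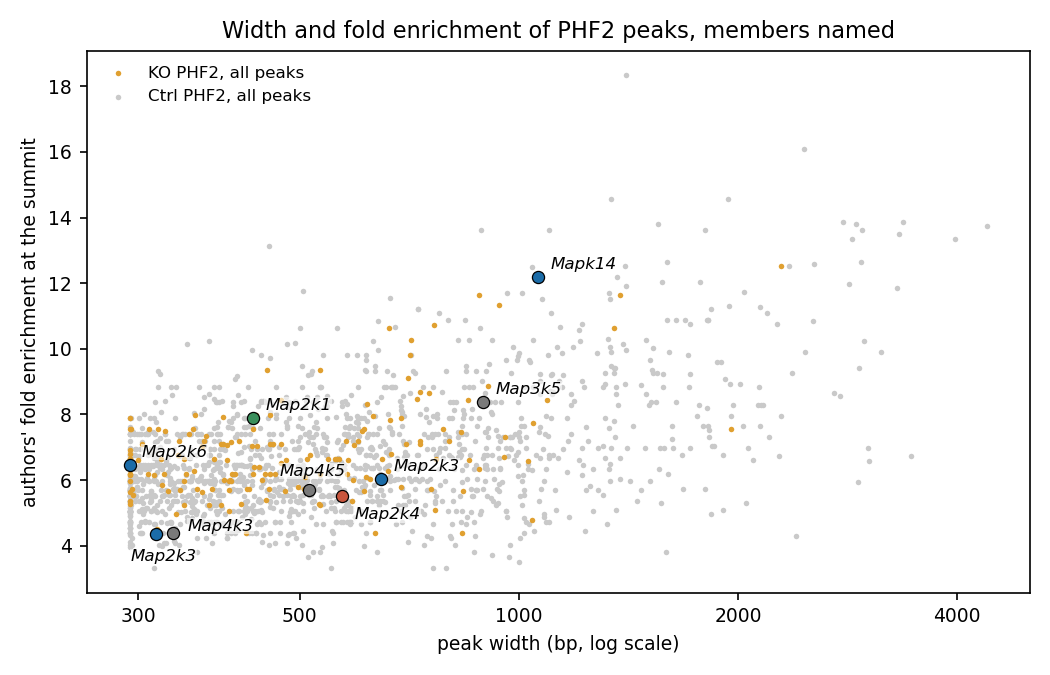
Authors' fold enrichment at the summit against peak width (log scale) for all KO PHF2 peaks (orange), all Ctrl PHF2 peaks (grey) and the 9 Ctrl peaks at the members (coloured by branch, as p38 blue, JNK red, upstream grey with a black rim, ERK green). Mapk14 stands at a fold enrichment of 12.2, and the other members lie between 4.36 and 8.37 within the main cloud.

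The absence of KO peaks was set beside the depth of each Ctrl peak. Of the 9 member Ctrl peaks, 0 overlapped a KO PHF2 peak, a count to which no limit is attached because these lists were known when the members were chosen. Over the whole Ctrl list 114 of 1621 peaks (7.03%, Wilson 95% interval 5.89 to 8.38) had a KO counterpart. Among the 1485 Ctrl peaks with 10 to 24 tags, the members' range, 75 did (5.05%, 4.05 to 6.28). A Ctrl peak of this depth without a KO counterpart was therefore the usual case in these libraries. KO tags at the member sites were not measured. No KO peak was called below 10 tags or below a -log10 p of 6.19, so a KO signal under either value would not be seen. In Ctrl, the smaller Map2k3 peak (13 tags, -log10 p of 5.41) and the Map4k3 peak (12 tags, 4.99) were themselves below that -log10 p.

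By tag number, Mapk14 was the member at which a KO counterpart would have been least unusual. Of 33 Ctrl peaks with 24 tags, 8 had a KO counterpart (24.2%, 12.8 to 41.0). At 17 tags, as at the main Map2k3 peak, 4 of 106 did (3.77%, 1.48 to 9.30), and at 16 tags, as at Map3k5 and Map4k5, 8 of 143 (5.59%, 2.86 to 10.7). At 15 tags, the number at Map2k1, it was 6 of 152 (3.95%, 1.82 to 8.34). At 10 tags, the number at Map2k4, it was 0 of 54 (0%, 0 to 6.64). The KO PHF2 peaks nearest to the members lay 826 to 8080 kb from the gene bodies, so the choice of window did not decide the KO count.

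Position within the window was not fixed by taking peaks over the gene body plus 5 kb. The members were still chosen with earlier results of these data known, so their positions are a description and not a test. All 9 member peaks had their summit within 1 kb of a listed start of their gene, although the bodies are 20.8 to 208.7 kb long. Starts were listed for 17492 of the 21887 genes, and of the 1275 Ctrl peaks in the window of such a gene 1063 (83.4%) had a summit within 1 kb of a listed start. Member summits were placed by the nearest listed start of their own gene. All Ctrl summits were placed by the nearest listed start of any protein-coding gene. Of the member summits 8 of 9 lay downstream of the start and 1 upstream. Over all Ctrl summits within 1 kb of a start 827 of 1063 (77.8%) lay downstream. By the measure used for all Ctrl summits, the Map4k5 summit would count as upstream, at -279 bp from Atl1. The shares are thus not on the same measure, and no excess is read from them. The members' median position was 197 bp into the gene, against 232 bp for all such Ctrl peaks (quartiles 47.5 and 438.5 bp). These medians differ in measure in the same way, so nothing is read from their difference. The listed start was inside 4 of 9 member peaks, at Map2k3, Map3k5, Map4k3 and Map2k1, and inside 481 of 1063 (45.2%) over all. No peak reached more than 437 bp beyond a member's gene body, at Map2k3. The nearest Ctrl peaks outside the windows lay 52.6 kb from Map2k3, at Tmem11, and 52.7 kb from Mapk14, at Brpf3, with a fold enrichment of 5.05 at both.

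**Figure D4:**
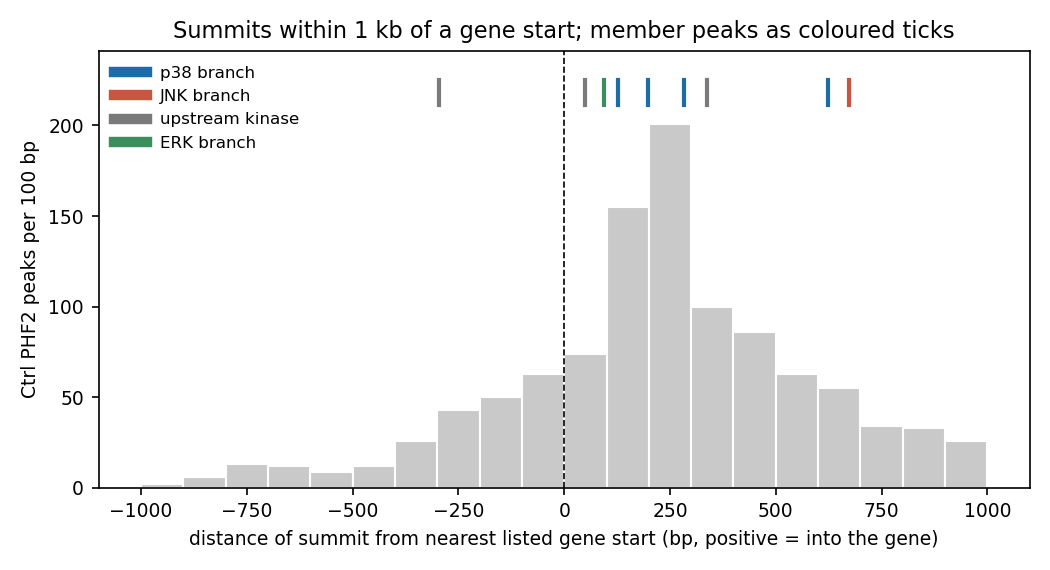
Number of Ctrl PHF2 peaks per 100 bp (grey bars) by the distance of the summit from the nearest listed start of a protein-coding gene. Member summits are ticks coloured by branch above the bars, placed by the nearest listed start of their own gene. The bars are highest from 200 to 300 bp into the gene, with 201 peaks. By own starts, 8 of 9 member ticks lie to the right of the start. The Map4k5 tick is among them, although its summit is nearer to the start of Atl1 and upstream of it, at -279 bp.

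Base composition at the starts was read from the promoter windows of 300 bases, for all 9 members. The members' windows held 14 to 55 CpG dinucleotides with a median of 33. The median was 27 over the 1293 listed starts within 1 kb of a Ctrl PHF2 summit and 13 over all 21263 listed starts of protein-coding genes. In 7 of 9 members the number was above the upper quartile of all starts, 24. The other two, Map2k6 with 14 and Map2k4 with 16, had a peak all the same. Mapk8, with no peak, had 45 CpG in its window, more than 6 of the 8 members with a peak. Mapk8 has 2 annotated starts, and with no peak to choose between them the first listed was used. Values at its other start are not given.

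**Figure D5:**
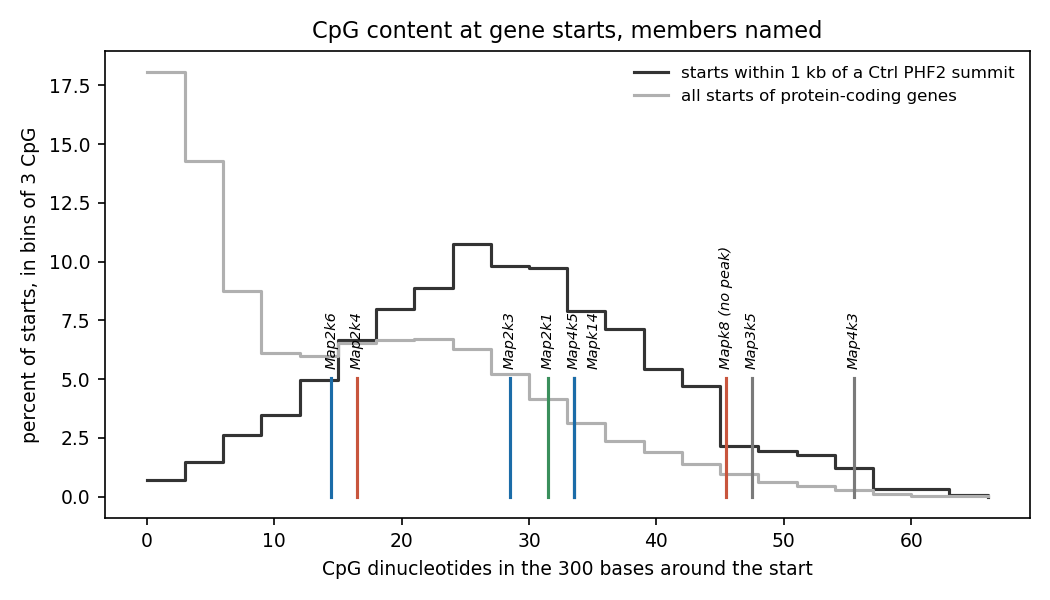
Share of gene starts by the number of CpG dinucleotides in the window of 300 bases, for starts within 1 kb of a Ctrl PHF2 summit (black line) and for all listed starts of protein-coding genes (grey line). Vertical lines mark the 9 members in branch colours. Mapk8, at 45 CpG and without a peak, stands among the CpG-rich members.

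Short letter matches were counted on both strands of the same windows. The GC box GGGCGG, a match for Sp family factors, occurred in 7 of 9 member windows, against 75.2% of the windows near a Ctrl PHF2 summit and 46.2% of all windows. Mapk8 had 7 matches and no peak, and Map2k6 and Map2k4 had 0 matches and a peak. The CCAAT box CCAAT occurred at Mapk14, Map2k3 and Map2k1, against 34.3% and 38.2% of windows in the same sets. The cyclic AMP response half-site TGACG occurred at Mapk8, Map2k4 and Map2k1, against 33.5% and 23.6%. The E-box CACGTG and the ETS letters CCGGAAG occurred in 0 of 9. A match is a description of the letters and does not show that a factor binds.

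The rest of the pathway was represented by a list of 72 further genes, drawn up with earlier results of these data known. No gene of it had a KO PHF2 peak in its window (0 of 72), and 9 of 72 had a Ctrl PHF2 peak (12.5%, against 7.38% of all genes). With the members the count was 17 of 81. Since the 72 are what was left after the members were taken out, nothing is read from their share. The IgG lists had 0 peaks at these genes in KO and 0 in Ctrl. By tier, Ctrl peaks were found at 0 of 12 terminal kinases, 0 of 3 MAP2Ks, 3 of 29 MAP3Ks and their partners, 1 of 5 MAP4Ks, 0 of 5 scaffolds, 3 of 11 downstream kinases, and 2 of 7 GTPases and exchange factors. The terminal kinases without a peak included Mapk9, which encodes JNK2, and Mapk12, which encodes the p38 gamma of muscle. Both were named after their values were seen. Together with the members, Mapk14 was thus the only terminal kinase of the genes examined with a Ctrl PHF2 peak. It was chosen as a member with that peak known, and only 7.38% of all genes had one. Its standing alone is therefore not read as a trait of Mapk14.

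The highest of the 9 was at Cdc42, a small GTPase gene acting above the stress branches, with a fold enrichment of 10.9 and 23 tags (14.6 to 34.5). Sos2, an exchange factor that activates Ras in the ERK branch, had 8.84 in a peak of 1358 bp. Rps6ka3, which encodes RSK2, a kinase activated by ERK, also had 8.84, in a narrower peak of 338 bp. Tnik, a MAP4K family gene, had 7.97 with 23 tags. Mapkapk2, which encodes MK2, the main kinase activated by p38, had 7.47 with 16 tags (9.15 to 25.98). At Taok1, a MAP3K gene of the stress branches, the fold enrichment was 6.02. At Tab2, an adaptor of the MAP3K TAK1, it was 5.50. Mknk2, a kinase downstream of ERK and p38 that acts on a translation initiation factor, had 5.37, and Ksr1, a scaffold of the RAF, MEK and ERK kinases, had 4.40. These peaks had a median fold enrichment of 7.47, against 6.02 for the members. For 7 of them a start was listed, and all 7 summits were within 1 kb of it, 6 of them downstream. The Sos2 summit was upstream, at -142 bp.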

How the data were processed

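Peak lists of 4 CUT&RUN libraries were used, grouped by their sample titles, and processed with Bowtie2, MACS2 and mm10 per the submitters' processing notes. The sources used here name no version, setting or control library. Each peak name carries its library. Each deposited list has 10 columns: the authors' fold enrichment is a ratio of summit signal to local background, their -log10 p and -log10 q test that excess, and their score, from the -log10 q, was not used. Members and lists were chosen with earlier results of these data known.

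MACS2 computes fold as (pileup + 1) / (background + 1) and p from a Poisson tail, which gave the pileup. This equalled whole tags, within 0.005, times 0.609 in KO (84 of 84 value pairs) and 0.649 in Ctrl (309 of 309). Where 2 solutions fitted (1 and 13 pairs) the one nearest a whole number was kept. The method was tested on simulated data. Starts are 1-based. Genes, starts and sequences came from RefSeq tables of GRCm38.p6. Distances at members and at the further genes are to the nearest listed start of the gene, positive into it. Over all peaks of a list they are to the nearest listed start of any protein-coding gene. No peak was filtered out. All members were named, with every gene of the further list that had a PHF2 peak. Some items are not reported here. Scripts ran under Python 3.11.15 with SciPy 1.17.1, NumPy 2.4.6 and pandas 2.3.3, and matplotlib 3.10.9 drew the figures.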

Additional observations from a re-analysis of the deposited data

How the results depend on the processing

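Over 9 counts and medians, 59 alternatives were computed: other windows, the summit alone, a -log10 q of at least 3, the lowest -log10 p of the KO PHF2 list (6.19), merged peaks, and other overlap rules. All counts stayed within 1.5 times their value. Medians of fold enrichment ran from 6.02 to 6.46 and medians of width from 515 to 571 bp, within the spread over member peaks. The alternatives kept, dropped or merged the same member peaks, so the medians could hardly leave that spread. The nearest Ctrl PHF2 peak outside a member's window lay 52.6 kb away, so the wider window tried could add none at the members. Both stricter thresholds removed the peak at Map4k3 and the smaller one at Map2k3, leaving 7 members with a Ctrl PHF2 peak, and the peak at Ksr1, leaving 8 of the further genes. No alternative gave a KO PHF2 or IgG peak at a member. No paired analysis was possible because there was 1 library a group, and none could be left out. The lowest KO PHF2 peak had 10 tags at its summit and the lowest Ctrl PHF2 peak 8, and what set these minima was not tested.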
